A study of Mus musculus with 3 samples.

Results

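Fibroblast growth factor (FGF) ligands and their receptors were examined in KO-actin cells, β-actin knockout mouse embryonic fibroblasts (MEFs) that express an NLS-tagged β-actin, the tag being a nuclear localization signal. The set held 10 genes of the 46603 in the count tables, all found by their mouse symbol, of which 7 encode ligands (Fgf1, Fgf2, Fgf5, Fgf7, Fgf10, Fgf18 and Fgf21) and 3 encode receptors (Fgfr1, Fgfr2 and Fgfr3). Polyadenylated RNA was sequenced in 3 libraries, replicates 1 to 3, and all carry the same genotype label, with no further treatment, time or age given. Knockout or wild-type libraries were not analysed here, so the values are levels in 1 condition and no fold change against other cells can be given. The labels do not say whether the libraries came from separate cultures, so the spread between them may be technical.

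FGFs are secreted proteins that bind receptor tyrosine kinases on the cell surface together with heparan sulfate. The activated receptor passes its signal through the docking protein FRS2 to the RAS-MAPK cascade, and genes such as those of the Sprouty family are switched on and dampen it. In the embryo, mesenchymal cells are a well known source of FGF7 and FGF10, which signal to neighbouring epithelium through an epithelial splice form of FGFR2, whereas mesenchymal cells themselves mostly use FGFR1. Counts per gene do not tell splice forms apart.

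The libraries held between 44383636 and 49932446 counts. Levels are given as CPM, counts divided by the scaled library size and brought to a common total. Actb, which encodes β-actin, was at 1078, 1114 and 1063 CPM in replicates 1, 2 and 3. Of the 10 fibroblast markers examined, 10 had more than 3 counts in every library, from Vim at 4563 CPM down to Thy1 at 0.836 CPM. Markers of other cells were low, with summed levels over the libraries of 0.380 to 0.670 CPM for 6 epithelial genes (highest Krt14, lowest Esrp1 at 0 counts), 1.99 to 2.54 CPM for 4 endothelial genes (highest Kdr at 2.09 CPM, lowest Cdh5 at no more than 1 count), 0.200 to 0.386 CPM for 4 blood genes (highest Hbb-bs, lowest Ptprc) and 0.162 to 0.260 CPM for 3 liver genes (highest Ttr, lowest per kilobase Alb). Among 3 cartilage genes Sox9 reached 12.8 CPM, Col2a1 had 1.89 CPM and Acan had at most 1 count per library. The part of other cells in the levels below was not tested. Replicate 2 stood apart from the others, since the chi-square divided by its degrees of freedom was 11.2 and 10.8 against replicates 1 and 3, which gave 3.78 against each other. Its deviation moved with the GC content of genes, since the median log2 difference from replicates 1 and 3 ran from -0.13 in genes under 42% GC to 0.14 in those from 58%.

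All 3 receptor genes were expressed well above the detection limit, and together they far exceeded the ligand genes. The floor was set at 3 counts, since a count of 0 allows up to that many, and a gene had to exceed it. In the libraries it was 0.0601 to 0.0671 CPM, and it covers counting error only. By this rule 7 of the 10 genes exceeded the floor in each library, namely 3 of 3 receptors and 4 of 7 ligands. For comparison, 58.9% of all protein-coding genes passed the same limit. Levels between genes were compared as CPM per kilobase of merged exons. On that scale the 3 receptors summed to 30.0, 31.5 and 30.4 in replicates 1, 2 and 3. The 7 ligands summed to 3.48, 2.62 and 2.93. The receptor sum was thus higher in 3 of 3 libraries without overlap, by a ratio of 10.3 ± 1.69 (SD, n = 3). An exact two-sided sign-flip permutation test gave p = 0.25, the smallest that 3 libraries allow. The size of the ratio depended on the gene length used and on single genes, being 18.6 with the longest annotated transcript, 26.0 without division by length, 25.3 without Fgf10 and 2.68 without Fgfr1.

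**Figure D1:**
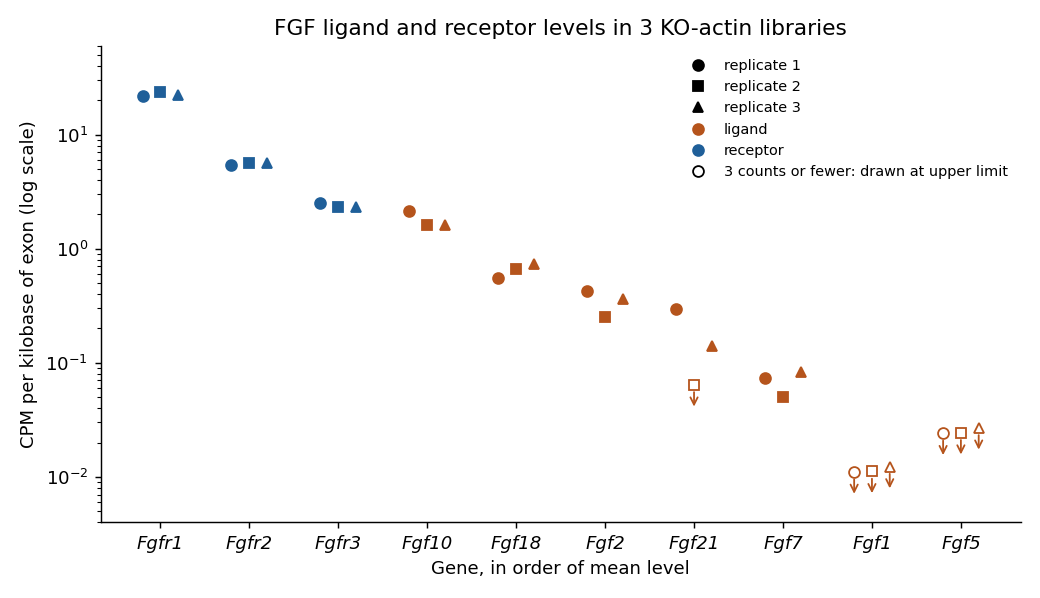
CPM per kilobase of merged exons (log axis) for each of the 10 genes in each of the 3 libraries, with receptors in blue and ligands in orange. Filled symbols are measured levels, and open symbols with arrows stand at the upper limit allowed by 3 counts. The receptors Fgfr1, Fgfr2 and Fgfr3 lie to the left of all ligands, and Fgf5 and Fgf1 are drawn at the level of 3 counts in every library.

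Fgfr1, the main FGF receptor of mesenchyme, spans bases 25513654 to 25575718 of chromosome 8 (GRCm38, plus strand). Its levels in replicates 1, 2 and 3 were 217, 232 and 222 CPM, from 10848, 11441 and 9902 counts. The libraries were close to each other, with replicate 2 highest, and the mean was 224 ± 7.63 CPM (SD, n = 3). This level exceeded that of 87.8% of the genes with any count, on the scale of CPM per kilobase, and Fgfr1 made up 74.0% ± 0.630 (SD, n = 3) of the receptor sum. The genes closest to it in level over the 3 libraries were Guk1, Hmgb3 and Tm9sf1, at Euclidean distances of 0.013, 0.023 and 0.025 in log2 CPM per kilobase among 13776 genes.

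Fgfr2, whose splice forms bind different sets of ligands, is annotated on chromosome 7 from 130162451 to 133123350 on the minus strand. Its levels were 56.2, 58.3 and 57.9 CPM in replicates 1, 2 and 3, from 2807, 2872 and 2588 counts. Of the 7 genes above the floor in every library it varied least, with a mean of 57.5 ± 1.09 CPM (SD, n = 3) and a coefficient of variation of 1.89%. The long annotated span reaches the gene Ctbp2 on the same strand, whose exons cover 3.04% of the exonic bases of Fgfr2 and which had 1745, 1666 and 1537 counts. Whether the annotation used for the counts holds this span is not given in the sources used here, and a shorter one would change the length by which Fgfr2 was divided.

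Fgfr3, a receptor best known as a brake on bone growth, lies on chromosome 5 from 33721674 to 33737068 on the plus strand. It had 18.0, 16.7 and 16.6 CPM in turn, from 900, 822 and 743 counts, a mean of 17.1 ± 0.796 CPM (SD, n = 3). Exons of G630022F23Rik on the opposite strand cover 13.9% of its exonic bases, and that gene had 2, 0 and 1 counts. The strand setting of the counting is not given in the sources used here.

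Per kilobase, Fgfr1 was 4.07-fold above Fgfr2 and Fgfr2 was 2.33-fold above Fgfr3. Neither pair overlapped between libraries.

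Among the ligands Fgf10, a mesenchymal factor needed for limb and lung budding, was the highest. It was below Fgfr3, the weakest of the 3 receptors of the set, in every library. Fgf10 is annotated on chromosome 13 from 118669791 to 118792115 on the plus strand. Levels of 9.78, 7.43 and 7.36 CPM were measured in replicates 1, 2 and 3, from 488, 366 and 329 counts. Replicate 1 was thus higher than the other two, and the mean was 8.19 ± 1.38 CPM (SD, n = 3). Fgf10 held 59.0% ± 3.90 (SD, n = 3) of the ligand sum per kilobase. Fgfr3 remained 1.35-fold above it on that scale, without overlap between libraries, and the gap was larger with the longest annotated transcript, at 1.03 in log2 units against 0.44. The genes closest to Fgf10 in level were Tmem81, Gm10269 and Gm6501, at distances of 0.082, 0.10 and 0.10.

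Fgf18, which acts on cartilage and bone cells, lies on chromosome 11 from 33117430 to 33147400 on the minus strand. Its 3 libraries gave 0.661, 0.791 and 0.873 CPM, from 33, 39 and 39 counts. The counting error expected at this depth is a coefficient of variation of 16.4%, and the observed one was 13.8%.

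Fgf2, basic FGF, a strong mitogen of fibroblasts, lies on chromosome 3 from 37348346 to 37410108 on the plus strand. Replicates 1, 2 and 3 were at 2.87, 1.70 and 2.46 CPM, from 143, 84 and 110 counts. Replicate 2 was the lowest. The mean was 2.34 ± 0.589 CPM (SD, n = 3). Nudt6 lies antisense to Fgf2, covers 9.44% of its exonic bases and had 75, 79 and 77 counts. Fgf18 was above Fgf2 per kilobase, 1.92-fold and without overlap between libraries, but below it by counts, since the merged exons of Fgf2 span 6782 bases and those of Fgf18 1187.

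Fgf7, keratinocyte growth factor, made by mesenchyme and acting on epithelium, lies on chromosome 2 from 126034658 to 126091185 on the plus strand. It had 12, 8 and 12 counts, or 0.240, 0.162 and 0.269 CPM in replicates 1, 2 and 3. It was detected in every library, yet its mean per kilobase was lower than that of Fgf2 by 5.01-fold and lower than that of Fgf10 in every library.

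The remaining ligands were not above the floor in every library. Fgf21, an endocrine FGF known for its release by liver under fasting and by stressed cells, lies on chromosome 7 from 45613886 to 45615490 on the minus strand. Its counts were 14, 2 and 6 in replicates 1, 2 and 3, so replicate 2 was under the floor, and the levels were 0.281, 0.0406 and 0.134 CPM. Fgf1, acidic FGF, on chromosome 18 from 38838673 to 38929472, had 2, 0 and 3 counts, at or under the floor in each library. Fgf5, a regulator of the hair cycle, on chromosome 5 from 98254184 to 98277030, had 0 counts in each library. Fgf10 was therefore at least 59.6-fold higher than Fgf5 per kilobase, taking 3 counts per library as the limit for Fgf5 and the library with the lowest bound.

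Among the 7 genes above the floor in every library, the order per kilobase was Fgfr1, Fgfr2, Fgfr3, Fgf10, Fgf18, Fgf2 and Fgf7. The 6 pairs of neighbours did not overlap between the libraries. The exact two-sided sign-flip permutation test gave an adjusted p of 0.25 for each pair, which is the smallest the design allows. The pairs were taken from the order of these same values, so the direction of each was fixed beforehand and the test cannot decide it. How often other pairs of genes overlap was not examined. The order of Fgf1, Fgf5 and Fgf21 cannot be set at this depth.

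**Figure D2:**
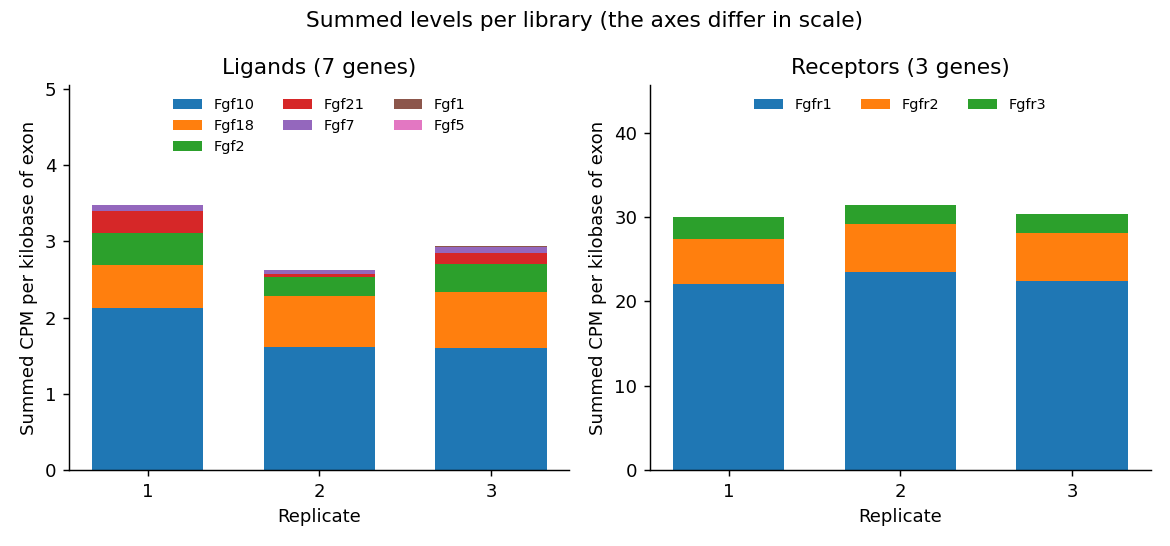
Stacked bars of CPM per kilobase of merged exons for the 7 ligands (left) and the 3 receptors (right) in each library, on axes of different scale that both start at 0. Fgf10 is the largest part of the ligand sum of 2.62 to 3.48, and Fgfr1 is the largest part of the receptor sum of 30.0 to 31.5.

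Among the libraries Fgf2, Fgf10 and Fgf18 had wider ranges than the 3 receptors, and Fgf18 differed 1.32-fold. The counting error expected for these ligands was also larger, a coefficient of variation of 9.44%, 5.04% and 16.4%. For the receptors it was 0.965% to 3.49%. A chi-square test of each gene's counts against the scaled library sizes asked for spread beyond counting error, on all genes that had 10 counts or more in each library, with Benjamini-Hochberg adjustment. Such spread was called for 3 of the 6 members tested, Fgf2, Fgf10 and Fgfr1, against 43.9% of all 13814 genes tested, a share close to that of the members. The test compares libraries of 1 condition. Fgf2 differed 1.68-fold between its highest and lowest library, with a chi-square adjusted p of 0.0025, and its SD of log2 CPM was 0.39 where the median of genes from 1 to 10 CPM was 0.16. Fgf10 differed 1.33-fold, with a chi-square adjusted p of 7.6e-05 and an SD of log2 CPM of 0.23, against the same median of 0.16. Fgfr1 differed by only 1.07-fold, with a chi-square adjusted p of 1.8e-05, and its SD of log2 CPM was 0.05. Fgf18, Fgfr2 and Fgfr3 had chi-square adjusted p values of 0.59, 0.46 and 0.25.

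Single libraries decided these calls. Without replicate 2 the test called 1 member, Fgf10, against 12.5% of all genes, and the chi-square adjusted p rose to 0.48 for Fgf2 and 0.40 for Fgfr1. Without replicate 1 the chi-square adjusted p for Fgf10 was 0.95, where 32.9% of all genes were called, and without replicate 3, where 34.0% were called, Fgf2, Fgf10 and Fgfr1 all passed. A minimum of 100 counts left 4 members, of which 2 were called, against 52.0% of all genes. Without a filter on low counts 4 of 9 members were called, against 25.9% of all genes, and the fourth was Fgf21 with a chi-square adjusted p of 0.036. With library sizes set within 50 bins of GC content, where 29.9% of all genes were called, Fgfr1 was no longer called (chi-square adjusted p = 0.27) and Fgfr3 was (0.042), while Fgf2 and Fgf10 were called. In replicate 2 Fgfr1, at 55.4% GC, lay 0.08 above replicates 1 and 3 in log2 CPM, and the median of genes from 54% to 58% GC was 0.08 as well. Fgf2, at 42.2% GC, lay 0.64 below them, where the median of genes from 42% to 46% GC was -0.07. The part of GC content in the difference of Fgf2 was not tested.

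**Figure D3:**
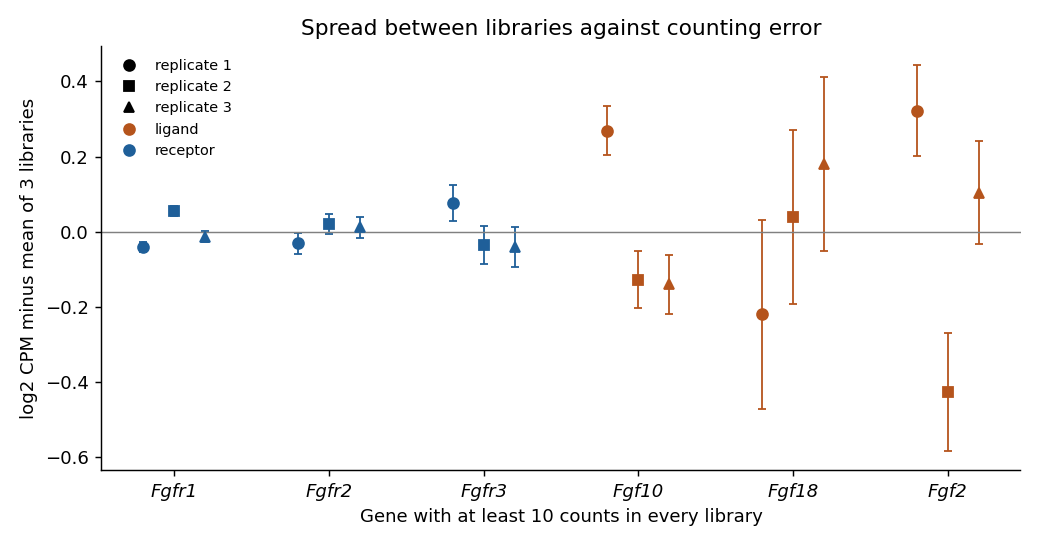
Difference of log2 CPM from the mean of the 3 libraries for the 6 genes that had 10 counts or more in each library, with bars of 1 standard error from counting alone. The receptors lie within 0.08 of 0, whereas Fgf2 ranges from -0.43 in replicate 2 to 0.32 in replicate 1 and Fgf10 is high in replicate 1 alone. Fgf18 ranges from -0.22 in replicate 1 to 0.18 in replicate 3.

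Promoter sequences, 250 bases before to 50 after the annotated start, were matched in RefSeq (GRCm38.p6) for 8 of the 10 genes, 6 ligands and 2 receptors, with 1 start each except Fgfr3 with 2. Those of the highest ligand, the ligand without counts, a ligand above the floor in 2 of 3 libraries and the receptor with the fewest CG dinucleotides are shown 5′ to 3′ on the strand of the gene, with each CG in capitals.
Fgf10, chr13:118714449-118714748, plus strand: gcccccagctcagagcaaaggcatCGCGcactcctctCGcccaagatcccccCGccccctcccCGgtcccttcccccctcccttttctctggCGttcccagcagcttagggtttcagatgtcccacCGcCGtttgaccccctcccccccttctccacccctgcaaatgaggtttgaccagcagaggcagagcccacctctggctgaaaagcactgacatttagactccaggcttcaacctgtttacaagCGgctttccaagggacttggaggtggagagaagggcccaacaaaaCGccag
Fgf5, chr5:98253934-98254233, plus strand: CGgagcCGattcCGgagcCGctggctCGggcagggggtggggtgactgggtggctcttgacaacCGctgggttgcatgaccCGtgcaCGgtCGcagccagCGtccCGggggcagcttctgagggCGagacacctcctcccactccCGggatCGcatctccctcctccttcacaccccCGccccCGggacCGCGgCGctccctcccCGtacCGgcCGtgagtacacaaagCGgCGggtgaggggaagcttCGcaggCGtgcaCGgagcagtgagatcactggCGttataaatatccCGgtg
Fgf21, chr7:45615441-45615740, minus strand: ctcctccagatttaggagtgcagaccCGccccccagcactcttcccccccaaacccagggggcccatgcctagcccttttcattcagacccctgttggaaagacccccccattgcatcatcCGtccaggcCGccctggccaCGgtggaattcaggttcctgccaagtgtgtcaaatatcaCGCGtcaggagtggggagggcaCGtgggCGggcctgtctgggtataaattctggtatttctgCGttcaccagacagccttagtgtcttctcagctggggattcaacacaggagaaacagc
Fgfr2, chr7:130266759-130267058, minus strand: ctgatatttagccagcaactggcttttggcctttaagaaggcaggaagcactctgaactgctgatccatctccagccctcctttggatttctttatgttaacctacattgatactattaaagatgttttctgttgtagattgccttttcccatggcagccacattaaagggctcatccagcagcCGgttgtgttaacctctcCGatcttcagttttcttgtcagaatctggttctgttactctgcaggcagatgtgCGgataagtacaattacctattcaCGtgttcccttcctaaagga
CG dinucleotides, the sites of DNA methylation in mammals, are dense at the promoters of many widely expressed and developmental genes. The Fgf5 promoter held 29 of them, more than 87.1% of the 32851 promoters, although no read was counted on Fgf5. The Fgfr2 promoter held 4, fewer than the median of 7, although Fgfr2 had 57.5 CPM. This is 1 annotated start of a gene with 27 annotated transcripts, and the data do not show which start was used. The Fgf10 promoter held 10 and that of Fgf21 held 9, while Fgf18 had the most at 47. The Fgf10 sequence begins at base 118714449, inside the annotated span of the gene, which begins at 118669791. Which start of Fgf10 was used is not shown either. Fgf2 held 24, Fgf7 11, and the starts of Fgfr3 26 and 30.

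Both strands were searched for 3 motifs. The TATA box, spelled TATAAA, occurs in 13.6% of all promoters and was found in Fgf21, starting 28 bases before the annotated start, and in Fgf5, 34 bases after it. TGATGNAA, the core of an element that C/EBP and ATF factors bind in stress responses, occurs in 4.0% of all promoters and was found in Fgf21 alone among the members matched, 139 bases before the start on the other strand. The GC box, spelled GGGCGG, occurs in 35.7% of all promoters and was found in Fgf2, Fgf5, Fgf10, Fgf18, Fgf21 and Fgfr3. No match overlapped one of another motif, and 2 matches of GGGCGG at a start of Fgfr3 overlapped each other. A match describes the letters and not a bound site.

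**Figure D4:**
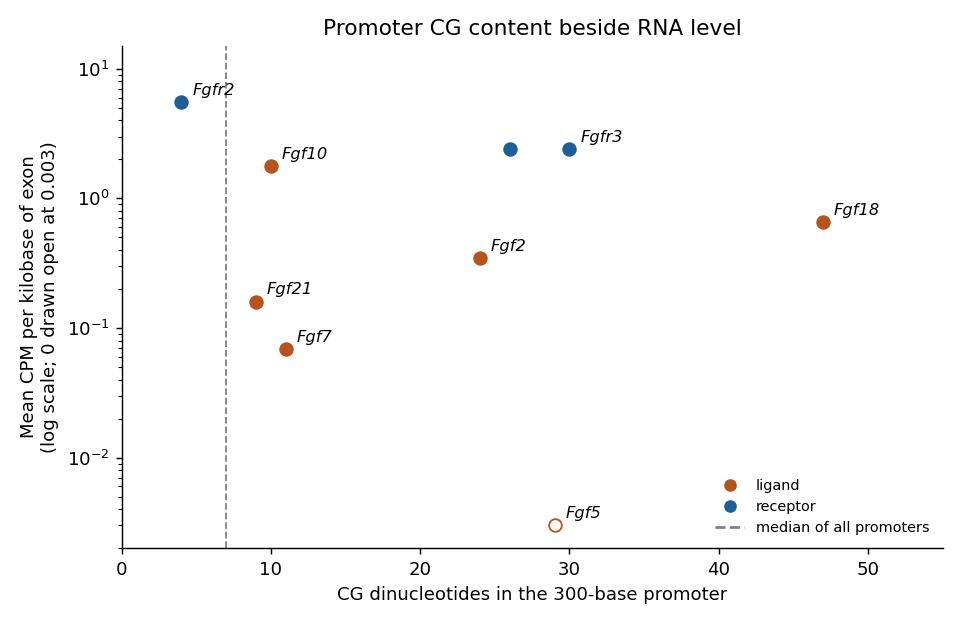
Number of CG dinucleotides in the 300-base promoter (horizontal axis) beside the mean CPM per kilobase of merged exons (log axis) for the 8 genes with a promoter sequence, with Fgfr3 drawn at each of its starts. Fgf5 has 29 CG and no counts, whereas Fgfr2 has 4 CG and is the highest of the 8, and the dashed line marks the median of 7.

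The rest of the pathway was described from lists of 87 genes grouped by role, of which 65 exceeded the floor in each library and 61 had 1 CPM or more in each. Of all protein-coding genes 58.9% and 51.5% passed these limits. Over the same lists, variation between libraries was called for 33 of the 63 genes tested, where 43.9% of all genes tested were called.

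Most other secreted FGFs were at or near 0 counts. Of 11 genes, 2 exceeded the floor in each library, Fgf15 with 13, 32 and 33 counts and Fgf22 with 15, 16 and 9, and 5 had 0 counts in all libraries, Fgf3, Fgf4, Fgf8, Fgf16 and Fgf20. Fgf17 was uneven, with 0, 12 and 2 counts. Of the 4 intracellular FGF homologous factors, which are not secreted and bind sodium channels, Fgf11 was above the floor at 2.38 ± 0.188 CPM (SD, n = 3), Fgf12 and Fgf13 had at most 3 counts in any library, and Fgf14 had 0.

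Of the other receptors, Fgfr4 had 0, 2 and 2 counts, whereas Fgfrl1, a receptor without a kinase domain, had 35.0 ± 0.537 CPM (SD, n = 3). Per kilobase Fgfrl1 stood at 12.6, between Fgfr1 at 22.7 and Fgfr2 at 5.57. Klb, the co-receptor that FGF21 requires, had 8, 7 and 7 counts, and Kl, the co-receptor of FGF23, had 0, 1 and 0. Of the FGF-binding proteins, which carry FGFs away from the matrix, Fgfbp3 had 243, 249 and 227 counts and Fgfbp1 had 1, 0 and 3 counts.

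Heparan sulfate genes ranged from under the floor to some of the highest levels in the lists. Of 11 core proteins, 8 had more than 3 counts in every library, from Sdc2 at 81.7 CPM per kilobase down to Gpc4 at 0.578, and the lowest of the list, Gpc3, had 0, 0 and 2 counts. Of 11 genes of heparan sulfate synthesis and editing, 9 passed, with Ext1, a polymerase of the chain, highest at 23.4 CPM per kilobase. The sulfatases that trim the chain outside the cell differed, since Sulf2 had 21.4 ± 1.35 CPM (SD, n = 3) and Sulf1, the lowest of the list, 1, 1 and 0 counts.

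Adaptors, kinases of the cascade and feedback inhibitors were all detected. All 11 adaptors and effectors were above the floor, from Crk at 53.5 CPM per kilobase to Frs3 at 1.04, with the main docking protein Frs2 at 12.0. So were all 10 genes of the RAS-MAPK cascade, from Map2k2 at 51.7 to Braf at 2.93 CPM per kilobase. Among the feedback inhibitors 12 of 12 were above the floor, from the phosphatase Dusp4 at 41.1 CPM per kilobase to Spry4, a Sprouty protein, at 0.382. Of 8 ETS and early response targets 7 passed, with Fosl1 highest at 57.8 CPM per kilobase, and the lowest, Etv1, had 0, 1 and 2 counts. Etv4 and Etv5, transcription factors that FGF signalling is known to induce, had 31.1 ± 0.362 and 10.7 ± 0.842 CPM (SD, n = 3). Of 3 FLRT proteins, membrane proteins that can bind FGF receptors, Flrt2 had 24.5 ± 2.15 CPM (SD, n = 3), Flrt1 0.802 ± 0.140 and Flrt3 5, 2 and 1 counts. For scale, the median of all protein-coding genes above the floor in every library was 6.43 CPM per kilobase of merged exons. Fgfr1 exceeded it, and Fgfr2, Fgfr3 and the 7 ligands did not reach it on that scale. For Fgfr2, at 5.57, this rests on merged exons of 10328 bases, where its longest transcript has 4429. No median was taken with the longest transcripts.

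**Figure D5:**
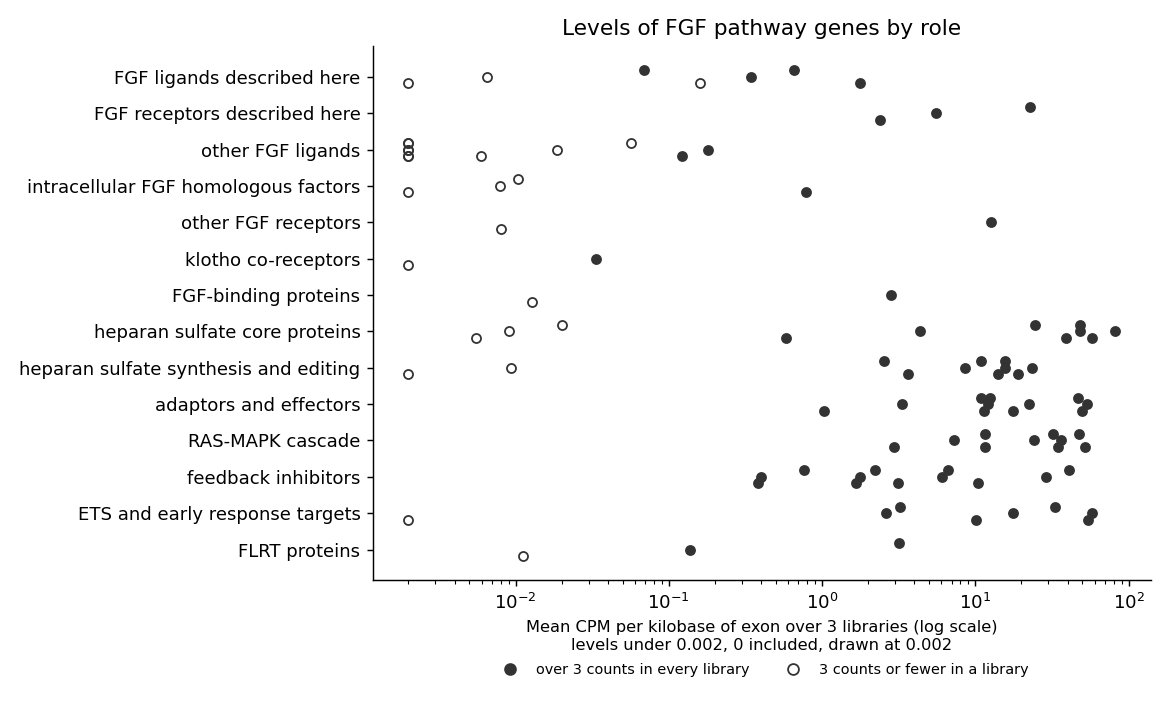
Mean CPM per kilobase of merged exons over the 3 libraries (log axis), 1 point per gene, for the 10 genes described and the 12 lists of pathway genes by role. Open points had 3 counts or fewer in at least 1 library, and most of them lie in the rows of ligands, intracellular homologous factors and core proteins. The 33 genes in the rows of adaptors, the RAS-MAPK cascade and feedback inhibitors are all filled.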

How the data were processed

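RNA-Seq of polyadenylated RNA from 3 KO-actin libraries was analysed. The deposited values are counts that the authors made for each Ensembl gene and did not normalize. The submitters' processing notes name Trimmomatic, FastQC, HISAT2 and HTSeq and the builds mm10 and GRCm38. The annotation, the strand setting and the handling of reads that match several genes are not given in the sources used here, so counts of overlapping genes are uncertain. Counts were scaled by TMM (edgeR 4.0.16, R 4.3.3), with factors of 1.00, 0.994 and 1.01, and divided by the merged exonic length of GENCODE M21 (GRCm38). GC content was that of the longest transcript. DESeq2 1.42.0 size factors, total counts, GC bins, other filters, downsampling and leaving out each replicate were the alternatives. Python 3.11.15, numpy 2.4.6, pandas 2.3.3, scipy 1.17.1 and matplotlib 3.10.9 were used. Symbols were matched for 46091 of 46603 genes. The chi-square test, with 2 degrees of freedom for 3 libraries and a threshold of 0.05, was tested on simulated data before use. Those data held counting error alone, besides a change placed in some genes. They did not hold the wider spread or the GC shift of the real libraries. Pairs of libraries differed by more than sampling noise, and each was kept as a sample. This does not show that they came from separate cultures.

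The genes and lists were chosen with earlier results of these data known. Named were all members, the highest and lowest gene of each pathway and marker list, the genes needed to account for lists of 4 or fewer, the 3 genes nearest in level to the highest ligand and receptor, and Actb. Fgf22, the other ligands, Gpc4, Sulf2, Frs2, Etv4, Etv5 and overlapping genes were named after their values were seen.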

Additional observations from a re-analysis of the deposited data

How the results depend on the processing

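No paired analysis was possible because the libraries hold 1 condition, so that no groups share replicate numbers. The share of the receptor sum held by Fgfr1 was 74.0%, and it was 75.0% without division by length and 72.3% with the longest transcript, both beyond 1 SD. The share of the ligand sum held by Fgf10 was 59.0%, and 69.9% without division by length. The order of Fgf18 and Fgf2 reversed without division by length, with a log2 difference of -1.57 against 0.94, as follows from their lengths. The number of members varying beyond counting error ranged from 1 to 3 when each replicate was left out, against 3, and was 2 to 4 under the other filters and scalings. The receptor to ligand ratio ranged from 9.48 to 11.2 without each replicate and exceeded 1 under every alternative tried. The number of genes above the floor ranged from 5 under a limit of 1 CPM to 8 without replicate 2, which let Fgf21 pass. Mean CPM of the 10 genes stayed within 1 SD in 60 of 60 values. Those of Fgf5 were 0 with an SD of 0 and could not move. Leaving out a library cannot move a mean beyond 1 SD by construction. DESeq2 factors or total counts changed mean CPM by at most 0.403%. Leaving out replicates for the order of levels was added after seeing the data. The 6 pairs could not overlap in any of these by construction, since they did not overlap with all libraries kept.

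Depth limits Fgf1, Fgf5, Fgf7 and Fgf21, whose counts were 14 or fewer per library.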
